A study of Mus musculus with 6 samples.

Results

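The genes described here encode the chains of the collagens. They are the protein-coding genes of the mouse GRCm38 annotation (mm10, GENCODE) whose symbol has the form Col, a number, a and a number, and 44 of the 21827 protein-coding genes on 19 autosomes, X and Y met this rule. Maf, a bZIP transcription factor, and H3K27ac, an acetylation of histone H3, were mapped around them by ChIP-seq, with nuclei taken from the gastrocnemius and quadriceps. The mice were wild-type animals aged 2 months, given in the methods as C57BL/6N, with no treatment named, and all samples shared this genotype, tissue and age. Of the 6 samples, 2 were immunoprecipitated for Maf, 2 for H3K27ac and 2 were inputs, and 4 peak lists, 1 for each immunoprecipitated sample, were used. There was no second genotype, age or treatment, and the lists hold positions with no read counts, so the depth behind them is unknown and the members are compared with all genes as a description, with no test.

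Collagens are triple-helical proteins of the extracellular matrix. Fibrillar collagens build the load-bearing fibrils of tendon, bone and skin, type IV collagen builds the network of basement membranes, and type VI collagen forms beaded microfibrils beside it. FACIT collagens lie on the surface of fibrils, and transmembrane collagens stay anchored in the plasma membrane. In muscle, most collagen is made by the connective tissue cells around the myofibers, while a few chains are made by the myofibers themselves. H3K27ac is found at active promoters and enhancers.

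The samples were nuclei of whole muscles, which hold several cell types. H3K27ac lay, in at least 1 list, at the promoters of 58.3% of all protein-coding genes and of 10 of 10 myofiber markers, 10 of 10 fibroblast markers, 8 of 8 endothelial markers, 8 of 8 smooth muscle and pericyte markers, 6 of 6 macrophage markers, 6 of 8 tenocyte markers, 4 of 5 satellite cell markers and 4 of 6 Schwann cell markers. In both lists it lay at 4 of the 8 tenocyte, 3 of the 5 satellite cell and 3 of the 6 Schwann cell markers, against 55.2% of all genes, so these 3 lists stood near that share, and the other counts did not change. It lay at 0 of 8 liver markers. A region at a collagen promoter therefore cannot be assigned to a cell type from these lists, and fewer cells of a type and less signal per cell cannot be told apart. The Maf lists were very unequal, with 74 peaks of 181 bp in replicate 1 and 5467 peaks of 281 bp in replicate 2. For H3K27ac, replicate 1 had 44887 regions (median 1476 bp) and replicate 2 had 44987 (median 1499 bp).

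The Maf peaks at collagen genes are shown first by their sequence, on mm10 and on the strand of the collagen gene. Capitals mark the letters searched on both strands, namely TGCTGA or its longer form TGCTGAC, the core of a Maf recognition element, TGANTCA, the AP-1 site, CAGCTG, an E-box, and the Mef2 motif. TGCTGAC contains TGCTGA, so a match to the first is also a match to the second. The first 4 peaks are those inside introns that held the TGCTGA core. They lie at chr17:34039903-34040183 in Col11a2 (plus strand), chr3:145331291-145331571 in Col24a1 (plus strand), chr4:47235025-47235305 in Col15a1 (plus strand) and chr1:24471328-24471608 in Col19a1 (minus strand).
Col11a2 intron: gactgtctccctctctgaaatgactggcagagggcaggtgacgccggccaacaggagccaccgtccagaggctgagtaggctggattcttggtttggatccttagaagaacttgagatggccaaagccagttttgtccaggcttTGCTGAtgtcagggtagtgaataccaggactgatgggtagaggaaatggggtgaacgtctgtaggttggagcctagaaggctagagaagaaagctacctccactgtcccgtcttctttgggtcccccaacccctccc
Col24a1 intron: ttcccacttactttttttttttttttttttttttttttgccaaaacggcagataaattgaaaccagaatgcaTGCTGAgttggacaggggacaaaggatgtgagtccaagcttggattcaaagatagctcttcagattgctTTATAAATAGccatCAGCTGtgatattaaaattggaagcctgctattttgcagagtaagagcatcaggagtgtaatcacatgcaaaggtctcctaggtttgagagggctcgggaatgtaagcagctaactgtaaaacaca
Col15a1 intron: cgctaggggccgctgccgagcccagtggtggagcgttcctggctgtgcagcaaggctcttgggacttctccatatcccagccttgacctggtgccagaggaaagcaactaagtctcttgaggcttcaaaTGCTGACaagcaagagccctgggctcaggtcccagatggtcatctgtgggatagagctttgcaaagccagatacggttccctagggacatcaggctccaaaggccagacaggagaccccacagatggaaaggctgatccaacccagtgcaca
Col19a1 intron: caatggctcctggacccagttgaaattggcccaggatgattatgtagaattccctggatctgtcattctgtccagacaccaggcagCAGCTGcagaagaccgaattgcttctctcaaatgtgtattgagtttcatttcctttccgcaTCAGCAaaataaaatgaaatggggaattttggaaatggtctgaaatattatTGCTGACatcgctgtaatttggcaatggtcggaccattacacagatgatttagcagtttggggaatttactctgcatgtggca
In the intron peaks of Col11a2, Col15a1 and Col24a1 the TGCTGA core was written on the strand of the gene. The Col19a1 peak held it in both directions, as TGCTGAC and, on the opposite strand, as TCAGCA. The Col24a1 peak held 3 of the motifs, TGCTGA, the Mef2 motif and CAGCTG.

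A second set of 4 peaks, next to a start or in the body of a collagen gene, gives examples in which the TGCTGA core was not found. The Col1a1 peak beside its start and the Col27a1 intron peak also lacked the core and are not shown. The 4 shown lie at chr10:34389356-34389636 upstream of Col10a1 (plus strand), chr3:145291908-145292188 upstream of Col24a1 (plus strand), chr9:105786573-105786853 in an intron of Col6a6 (minus strand) and chr1:90775783-90776063 in a coding exon of Col6a3 (minus strand).
Col10a1 upstream: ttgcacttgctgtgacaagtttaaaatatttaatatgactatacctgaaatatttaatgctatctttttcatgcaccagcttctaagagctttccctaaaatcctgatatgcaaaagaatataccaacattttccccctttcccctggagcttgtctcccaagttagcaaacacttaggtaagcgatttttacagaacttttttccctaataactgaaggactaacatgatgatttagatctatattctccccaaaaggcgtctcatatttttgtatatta
Col24a1 upstream: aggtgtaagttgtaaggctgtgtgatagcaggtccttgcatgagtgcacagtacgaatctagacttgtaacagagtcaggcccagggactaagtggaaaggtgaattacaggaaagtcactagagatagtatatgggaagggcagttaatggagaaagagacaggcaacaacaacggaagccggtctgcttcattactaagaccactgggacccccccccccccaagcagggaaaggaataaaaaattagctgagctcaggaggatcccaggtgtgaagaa
Col6a6 intron: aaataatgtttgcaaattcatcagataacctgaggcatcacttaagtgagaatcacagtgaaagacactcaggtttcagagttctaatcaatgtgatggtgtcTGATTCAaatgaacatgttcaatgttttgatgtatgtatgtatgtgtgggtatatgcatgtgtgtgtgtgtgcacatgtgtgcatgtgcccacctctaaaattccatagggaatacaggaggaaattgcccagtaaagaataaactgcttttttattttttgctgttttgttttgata
Col6a3 coding exon: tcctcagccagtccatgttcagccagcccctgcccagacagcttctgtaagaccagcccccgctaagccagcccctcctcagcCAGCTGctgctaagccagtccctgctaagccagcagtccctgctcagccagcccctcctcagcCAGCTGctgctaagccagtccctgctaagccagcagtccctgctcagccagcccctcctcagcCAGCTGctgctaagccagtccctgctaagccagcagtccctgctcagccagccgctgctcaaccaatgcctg
Neither upstream peak held any of the letters searched. The Col6a6 peak held 1 AP-1 site. The Col6a3 peak lay in coding sequence over all of its 281 bases, and a repeated stretch of that exon held CAGCTG 3 times.

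Of the 15 Maf peaks within 50 kb of collagen genes, 40.0% held TGCTGA, against 50.8% of all 5485 Maf peaks on these chromosomes. TGCTGAC was in 13.3% of the collagen peaks against 22.7% of all peaks. The AP-1 site was in 13.3% against 14.8%, CAGCTG in 26.7% against 24.2% and the Mef2 motif in 6.67% against 7.68%. With 15 peaks, each peak counts for 6.67% of these shares. A match of letters is a description and does not show which factor was bound.

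Maf peaks lay within 1 kb of a transcript start in 4 collagen genes, Col1a1, Col10a1, Col11a2 and Col24a1. This is 9.09% of the members, where 4.71% of all protein-coding genes had such a peak. A window of 10 kb gave the same 4 genes, 9.09% of the members against 10.2% of all genes. In the gene body a Maf peak was found in 8 members (18.2%, against 11.9% of all genes), and within 50 kb of the gene in 12 members (27.3%, against 34.3%). All 15 peaks behind these counts came from the replicate 2 list, and the 74 peaks of replicate 1 gave 0 members at every distance. In that replicate 1 list, 5 of all genes had a peak within 1 kb and 153 within 50 kb.

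The count for gene bodies is not adjusted for their length, and collagen genes are long. The median body was 114 kb in the members and 17.4 kb in all genes. Per Mb of body, the collagen genes held 1.49 Maf peaks, where all genes held 3.33. The median distance from a start to the nearest Maf peak was 186 kb in the members (range 0.043 to 917 kb), against 125 kb over the 21644 genes with a Maf peak on their chromosome. By these measures Maf peaks were not denser at collagen genes than at genes in general.

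**Figure D1:**
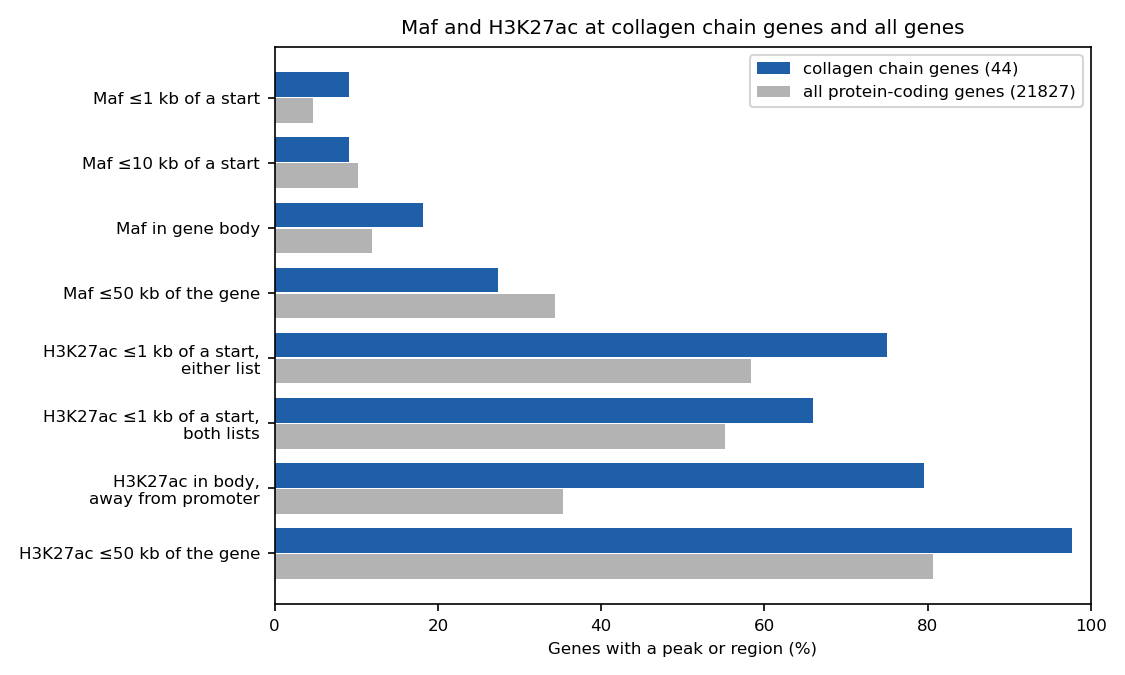
Bars give the share of genes with a Maf peak or an H3K27ac region in each window (%), in blue for the 44 collagen chain genes and in grey for all 21827 protein-coding genes. For Maf, the blue bar is longer within 1 kb and in the body. It is shorter within 10 kb (9.09% against 10.2%) and within 50 kb (27.3% against 34.3%). For H3K27ac every blue bar is longer, by most in the body away from the promoter (79.5% against 35.3%). Bodies are longer in the members (median 114 kb against 17.4 kb), and the bars are not adjusted for length.

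The list order was used as a stand-in for peak strength, since the score was 1 for every peak, and whether the files are sorted by strength is not stated. Among the fibrillar chains, the Col24a1 intron peak stood highest of all 15, at position 948 of 5467. Col24a1 encodes a minor fibrillar chain. This peak lay 38959 bp downstream of the start and in a merged H3K27ac region of 5530 bp, and each list had a region overlapping it. For this and the other Maf peaks, the length given for an H3K27ac region is that of the merged lists. The other Col24a1 peak lay 424 bp upstream of the start, stood near the end of the list at position 5379, and did not overlap H3K27ac, although its centre was 539 bp from a marked region.

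Col11a2, a chain of the fibrils of cartilage, had the promoter peak that stood highest in the list. Its centre lay 388 bp downstream of a start, at position 1455, inside an H3K27ac region of 1792 bp. Col1a1, the main chain of type I collagen, had a peak 183 bp downstream of its start, over an exon with coding sequence, at position 4612 and inside an H3K27ac region of 5278 bp. Its sequence is not shown because it includes untranslated bases. Of the 4 genes with a Maf peak within 1 kb, Col11a2 was the 1 whose peak stood in the first 50% of the list.

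Col27a1, another minor fibrillar chain, had an intron peak at position 1262, and no H3K27ac lay within 2325 bp of its centre. This peak lacked the TGCTGA core, and it stood higher in the list than the 4 peaks shown without the core. Col19a1, a FACIT chain, had its intron peak at position 1786, and the nearest H3K27ac region was 78083 bp away. Col15a1, which encodes a proteoglycan of the basement membrane zone of muscle and vessels, had its intron peak at position 2248, within an H3K27ac region of 5952 bp. The TGCTGA core of the Col15a1 peak lay 8 bp from the peak centre, that of the Col11a2 peak 7 bp from it.

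The remaining peaks in bodies stood lower. The Col6a3 exon peak, in a gene for a chain of type VI collagen, stood at position 4130 and overlapped an H3K27ac region of 1542 bp. The Col6a6 intron peak, in a related chain, stood at position 4516, without H3K27ac. Col10a1, the chain of hypertrophic cartilage, had its upstream peak at position 5156. That peak lay 485 bp before the Col10a1 start and in an intron of Nt5dc1, with the nearest H3K27ac region 7962 bp away.

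For 5 of the 15 peaks, the nearest transcript start belonged to a gene other than a collagen. They were the second Col1a1 peak (nearest start Ppp1r9b), the peak near Col7a1 (Pfkfb4), the second Col11a2 peak (H2-K1), the peak near Col23a1 (Nhp2) and the Col27a1 intron peak (Orm1). Col7a1 encodes the chain of anchoring fibrils in skin, and Col23a1 a transmembrane chain. The Col14a1 peak, 36108 bp upstream of this FACIT gene, stood at position 5282 without H3K27ac. Of the 15 peaks, 9 overlapped H3K27ac and 6 did not. The paper reports more Maf peaks with H3K27ac than without it, over its whole set of Maf peaks. The share over all Maf peaks was not computed here, so whether these counts differ from it is unknown. They cannot be read as a trait of collagen genes.

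**Figure D2:**
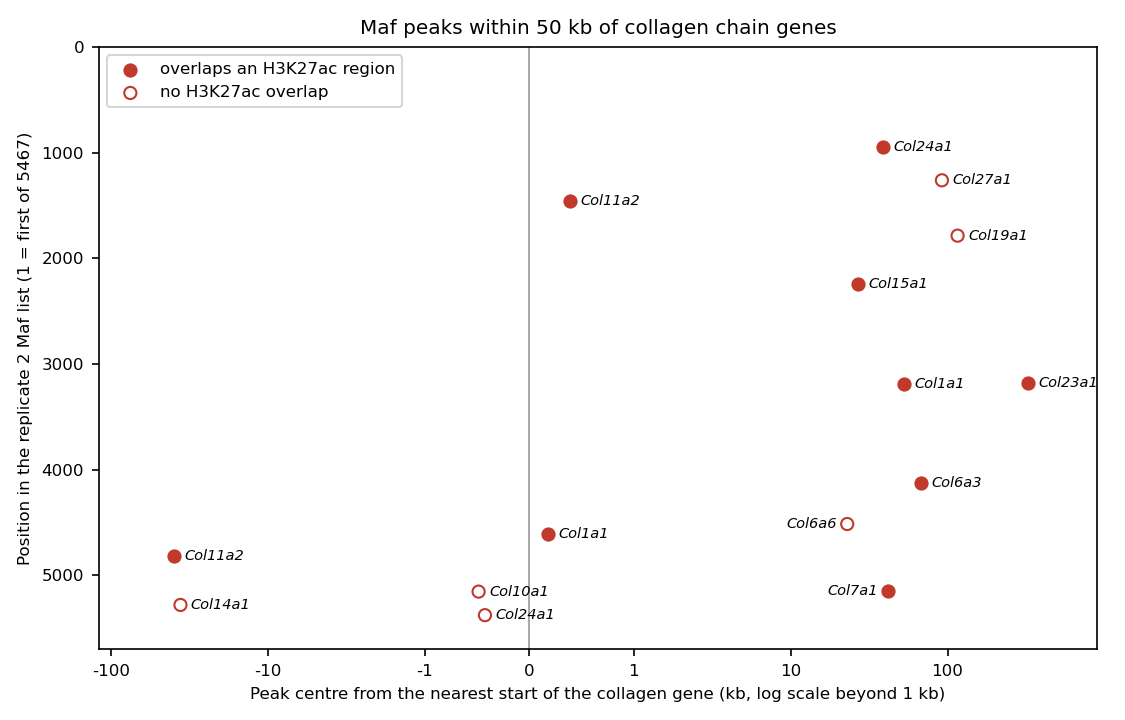
Each circle is a Maf peak of replicate 2 within 50 kb of a collagen gene, placed by the distance of its centre from the nearest start of that gene (kb, log scale beyond 1 kb) and by its position in the list of 5467 peaks, with the first peak at the top. Filled circles overlap H3K27ac (9 of 15, with no share over all Maf peaks computed). The Col24a1 intron peak (position 948) stands highest, and 3 of the 4 peaks beside a start stand at position 4612 or later.

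At promoters, the 1 kb before and after a start, H3K27ac was found in 33 of the 44 members in at least 1 list (75.0%), against 58.3% of all genes. In both lists it was found in 29 members (65.9%), against 55.2%. Replicate 1 marked 30 members and replicate 2 marked 32. The 4 members marked in a single list were Col4a6, Col12a1 and Col22a1 in replicate 2 and Col26a1 in replicate 1. They made up 9.09% of the members, where 3.18% of all genes were marked in a single list. Apart from the shared promoters of type IV chains, no marked region at a collagen promoter also held the start of another protein-coding gene.

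Among the fibrillar chains, 10 of 11 promoters were marked in both lists, and Col2a1, the main chain of cartilage collagen, was not marked in either. The Col1a1 region was 4934 bp in replicate 1 and 5278 bp in replicate 2, and that of Col1a2, the partner chain of type I collagen, was 4915 and 5157 bp. The Col3a1 region, at the gene for type III collagen of soft tissues, was 8900 and 6876 bp. Those of Col5a1 and Col5a2, chains of the type V collagen that takes part in fibril assembly, were 5499 and 6974 bp and 3176 and 3233 bp. In both lists Col1a1, Col1a2, Col3a1 and Col5a1 thus had the longest regions of the class, while Col11a1, a cartilage chain, had 804 and 501 bp. The 3 others had 1750 and 1518 bp (Col11a2), 1508 and 945 bp (Col24a1) and 1465 and 1453 bp (Col27a1). Col5a3 differed most between the lists among the members marked in both, with 3080 and 1027 bp.

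Long H3K27ac regions lay over promoters of unlike base composition. The 250 bases before the starts of Col3a1 and Col5a1 show this pair, which was chosen after its values were seen. They lie at chr1:45311288-45311537 and chr2:27886175-27886424, both on the plus strand, as given by RefSeq for GRCm38, whose table of promoters matched 35 of the 44 members. Capitals mark each CG.
Col3a1 before the start: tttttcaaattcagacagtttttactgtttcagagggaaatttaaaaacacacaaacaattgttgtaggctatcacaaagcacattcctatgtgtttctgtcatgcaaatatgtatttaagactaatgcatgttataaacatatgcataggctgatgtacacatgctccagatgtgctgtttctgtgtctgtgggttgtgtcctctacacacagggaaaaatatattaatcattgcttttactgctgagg
Col5a1 before the start: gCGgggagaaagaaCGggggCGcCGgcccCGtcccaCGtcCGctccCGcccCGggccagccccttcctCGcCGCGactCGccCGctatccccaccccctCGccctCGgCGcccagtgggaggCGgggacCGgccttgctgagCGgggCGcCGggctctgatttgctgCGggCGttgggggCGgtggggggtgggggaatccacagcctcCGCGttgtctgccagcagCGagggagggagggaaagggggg
The Col3a1 window held 0 CG and was 35.2% G or C. The Col5a1 window held 28 CG and was 76.4% G or C. Over 16515 such windows the median was 10 CG, and 7.03% held none.

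Of the 6 chains of basement membrane collagen, all had a marked promoter in at least 1 list and 5 in both. Type IV genes lie in pairs that run in opposite directions. The starts of Col4a1 and Col4a2, the chains found in nearly all basement membranes, were 21 bp apart and shared a single region of 6388 bp in replicate 1 and 6681 bp in replicate 2. Col4a3 and Col4a4, chains known from kidney and lung, started 127 bp apart and shared a shorter region of 1290 and 1683 bp. The starts of Col4a5 and Col4a6 were 1309 bp apart and did not share a region. Col4a5 had a region of 1159 and 1042 bp, and Col4a6 one of 501 bp in replicate 2 alone. No member of this class had a Maf peak within 50 kb.

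Of the 6 beaded filament chains, 4 were marked in both lists. Col6a1, an obligate chain of type VI collagen, had the longest promoter region of all members, at 10566 and 11049 bp. Col6a3 had 8135 and 8641 bp and Col6a2, the third chain of the trimer, 2652 and 2917 bp. Col6a6 had 2809 and 2347 bp. Its neighbours on chromosome 9, Col6a4 and Col6a5, were not marked at the promoter in either list, so the genes of this stretch differed. Col6a4 was the 1 member with no H3K27ac region within 50 kb, and its nearest was 62549 bp from the start.

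Of the 9 FACIT chains, 6 were marked in at least 1 list and 4 in both. Col14a1, which binds to fibrils in soft connective tissue, had 3783 and 1814 bp. Col16a1, a chain of small fibrils, had 2998 and 3178 bp. Col9a1 had 948 and 2322 bp, while Col9a2 and Col9a3, its partners in the type IX collagen of cartilage, were not marked. Col12a1, found along fibrils of tendon and fascia, had a region of 1636 bp in replicate 2 and none in replicate 1. Col22a1, used in the study as a marker of the myotendinous junction, had 637 bp in replicate 2 and none in replicate 1. Col19a1 had 1456 and 1033 bp, and Col20a1 was not marked.

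Among the transmembrane chains 2 of 4 were marked. Col13a1, a component of the neuromuscular junction, had 1790 and 1545 bp, and Col23a1 had 878 and 756 bp. Col17a1, a chain of the hemidesmosomes of skin, was not marked. Col25a1, which the study uses as a gene of developing muscle, was not marked at its promoter, and its nearest H3K27ac region lay 118875 bp from the start. It had no Maf peak within 50 kb.

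Both multiplexins were marked, Col15a1 with 4525 and 3343 bp and Col18a1, the precursor of endostatin, with 1675 and 1701 bp. The short chain genes Col8a1 and Col8a2, known from vessels and the cornea, had 3038 and 2266 bp and 761 and 675 bp, and Col10a1 was not marked. Col7a1 and Col28a1 were not marked, and Col26a1 had 501 bp in replicate 1 alone. The length of 501 bp was the most frequent in both lists, and 13.3% and 14.8% of regions were of that length or shorter.

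Grouped by the tissue they are best known from, a grouping made after the values were seen, 3 of 7 cartilage chains had a marked promoter in both lists (Col9a1, Col11a1 and Col11a2), where 55.2% of all genes had one. With 7 genes this count is close to that share. The epithelial anchoring chains Col7a1 and Col17a1 had none. All 9 chains of types I, III and V and of the Col6a1 to Col6a3 trimer were marked in both lists. This group was drawn by chain type, also after the values were seen. It leaves out Col6a4 and Col6a5, which were not marked in either list, and Col6a6, which was marked in both. Over the 33 marked members the median length of the promoter region in the merged lists was 2407 bp, against 2220 bp over all marked genes. In the single lists it was 2730 bp in replicate 1 and 1758 bp in replicate 2, against 2065 and 2146 bp, so the members stood above all genes in 1 list and below in the other. The longer of both lists was 1.16 times the shorter at the median of 29 members, and 5 members exceeded 1.5 times. The lengths of both lists followed each other across these members with a Spearman rho of 0.872, which is a description of genes that share their libraries.

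**Figure D3:**
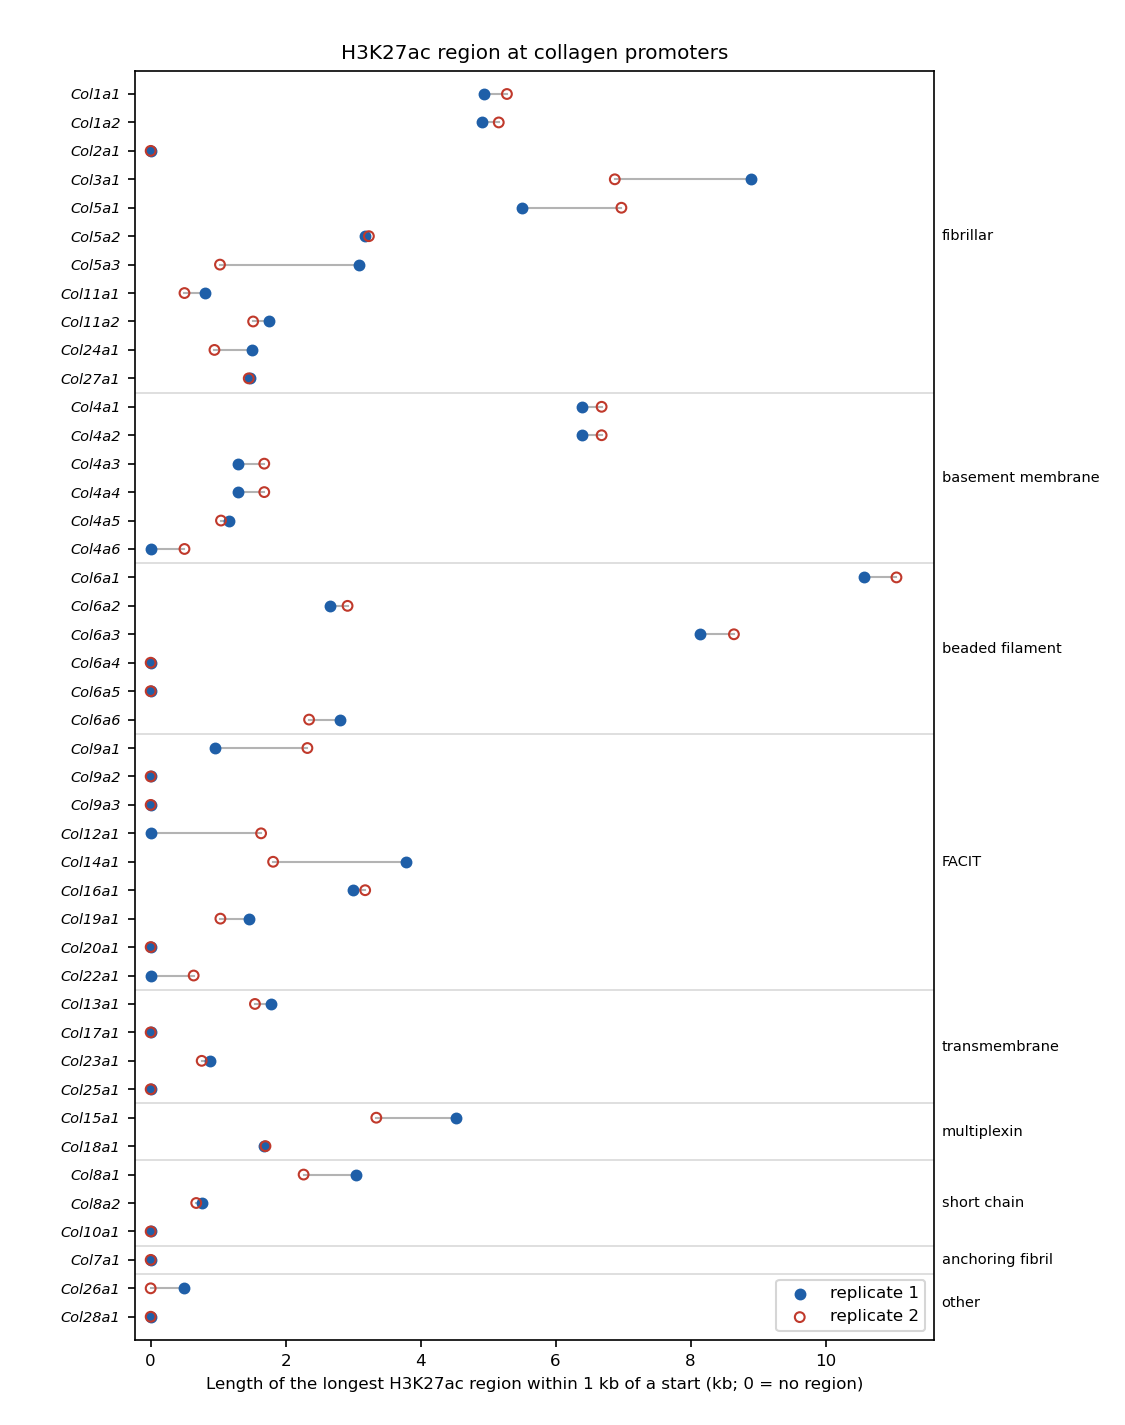
For each of the 44 genes, grouped by collagen class, the points give the length (kb) of the longest H3K27ac region within 1 kb of a start in replicate 1 (filled) and replicate 2 (open), and 0 means no region. Col6a1, Col3a1 and Col6a3 have the longest regions, the 11 genes with no region in either list lie at 0, and the bar between the points is longest for Col5a3, Col3a1 and Col14a1.

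Away from promoters, 35 of 44 members had an H3K27ac region in the body (79.5%), against 35.3% of all genes. The bodies of the members are longer, and per 100 kb of body they held 2.83 such regions, against 2.58 in all genes. Within 50 kb of the gene, 43 members (97.7%) had a region, against 80.6% of all genes. The median share of the body under H3K27ac was 3.49% in the members and 3.81% in all genes, and pooled over all bases it was 5.55% and 7.26%. Counted per length, the members thus lay close to all genes in the number of regions and below them in the bases covered. The shares of bases also count promoter regions inside the body, and the median body was 114 kb in the members against 17.4 kb. What body length adds to the lower share was not tested.

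Col1a1 had the largest share of its body under H3K27ac, 55.8% in replicate 1 and 60.6% in replicate 2. Merging both lists gave 77.3%, which was at the 96.9 percentile of all genes. Col4a1 had 21.3% and 26.2%, and Col4a2 had 19.1% and 27.3%. Col6a1 had 15.1% and 19.3%, and Col15a1 had 20.7% and 20.2%. Between these members and the rest there was a wide range. In the merged lists 11 members had more than 10% of the body covered, and 6 had none (Col2a1, Col6a4, Col9a2, Col9a3, Col10a1 and Col20a1), as had 36.7% of all genes. The lowest of the 11, Col1a2 with 10.6%, stood at the 68.2 percentile of all genes. The upper quartile of the share was 9.79% in the members and 15.2% in all genes, so high shares were not particular to collagen genes.

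The partner chains of type I collagen differed in this share, since Col1a2 had 7.71% and 9.20% of its body covered. Their promoter regions were of similar length, and the body was 36.7 kb in Col1a2 and 16.8 kb in Col1a1. What body length adds to this difference was not tested. Col3a1 had 16.3% and 15.1%, with 1 region away from the promoter in replicate 1 and 0 in replicate 2. Col4a2 had the most separate regions in the body, 14 in replicate 1 and 17 in replicate 2, and Col15a1 had 9 and 10. No other protein-coding gene started in the body of a member, except that Col4a1 and Col4a2 overlap at their starts. Across all 44 members the body shares of both lists followed each other with a Spearman rho of 0.968, again as a description.

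**Figure D4:**
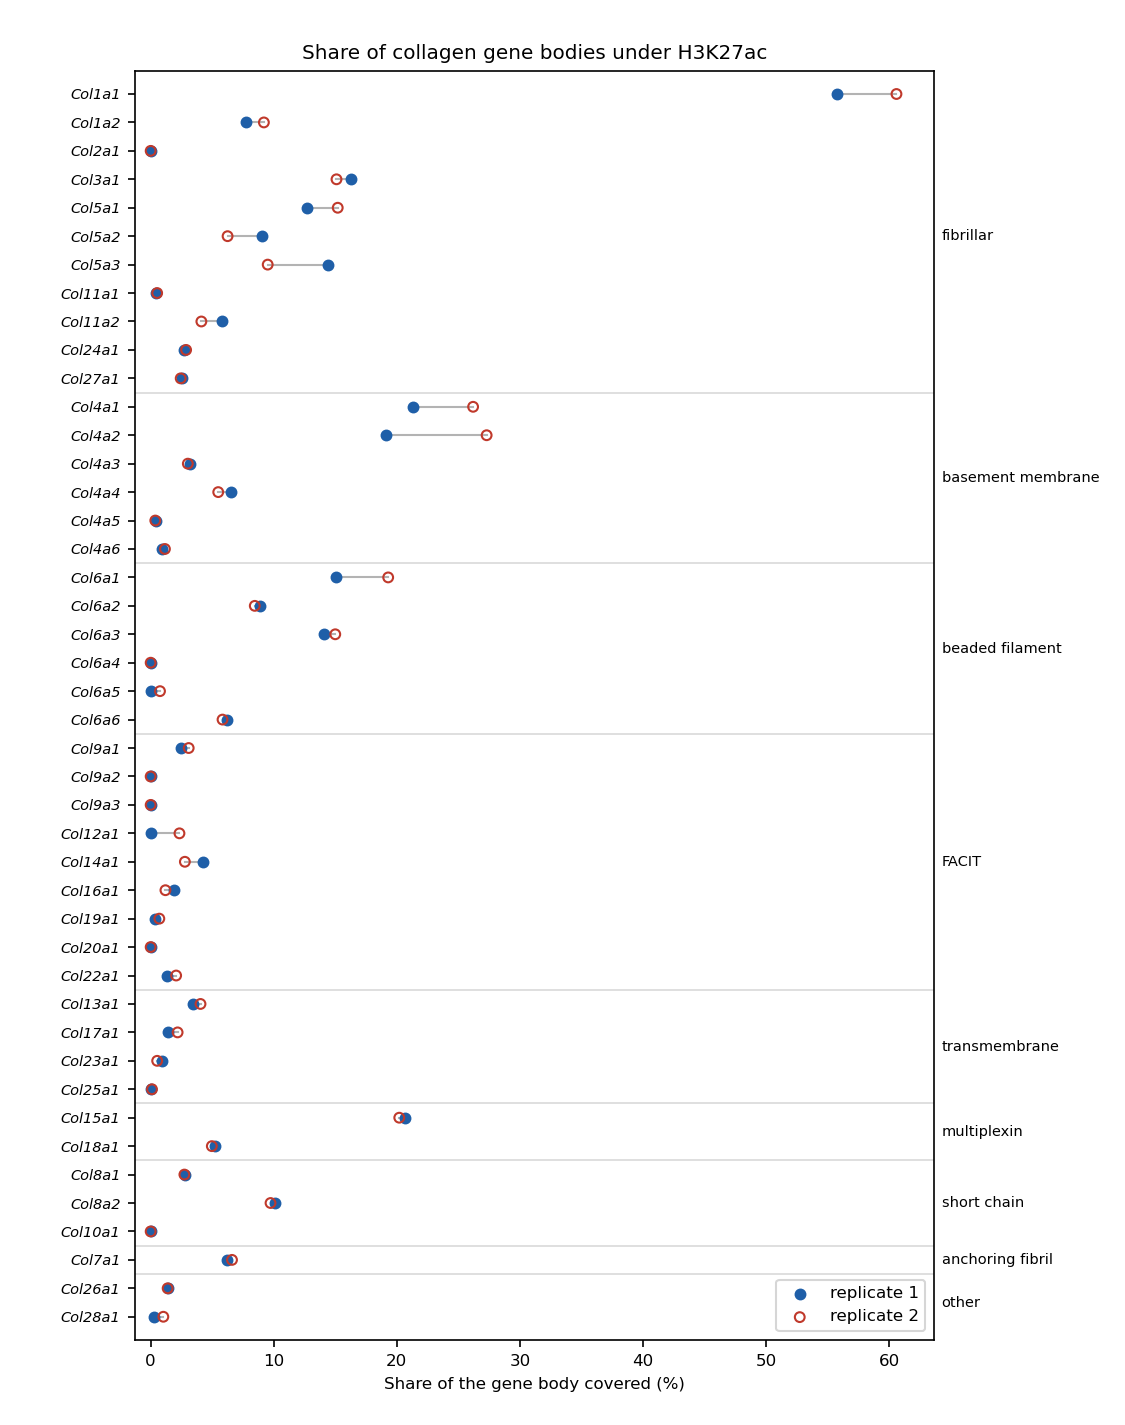
For each of the 44 genes, grouped by collagen class, the points give the share of the gene body covered by H3K27ac (%) in replicate 1 (filled) and replicate 2 (open). Col1a1 stands apart from all others, followed by Col4a1, Col4a2, Col15a1 and Col6a1, and most other genes lie below 10%.

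The genes that make, cut, bind and degrade collagen were listed by role. Of 21 genes of chain synthesis and folding, 20 had H3K27ac at the promoter in at least 1 list, against 58.3% of all genes. P4ha3, a subunit of prolyl 4-hydroxylase named after its values were seen, did not. Of 13 genes of propeptide cleavage and crosslinking, 11 were marked, as were 8 of 10 collagen receptors, 11 of 13 small proteoglycans and fibril partners, and 6 of 9 collagenases and inhibitors. In both lists the counts were 20 of 21, 10 of 13, 6 of 10, 10 of 13 and 5 of 9, against 55.2% of all genes. Maf peaks within 10 kb of a start were found in 2 of the synthesis genes and 1 of the collagenases and inhibitors, and in 0 of the other lists, against 10.2% of all genes. They were Pepd, the peptidase that recycles proline from collagen (position 666), Timp2, an inhibitor of metalloproteinases (position 2875), and P3h2, a prolyl 3-hydroxylase (position 4044). Of the 10 myofiber markers 9 had a Maf peak within 10 kb, as had 1 of 8 smooth muscle and pericyte, 1 of 6 Schwann cell and 1 of 6 macrophage markers and 0 of the 10 fibroblast markers and of each other marker list. All of these came from the replicate 2 list, and replicate 1 gave 0 in every partner and marker list. The myofiber list includes Ckm, Myh4, Atp2a1 and Actn3, which the paper names for strong Maf binding in these same data. Its count is therefore in part given by the choice of markers and is no independent comparison with the other lists.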

How the data were processed

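Nuclei were crosslinked, and the sheared chromatin of each sample was divided between the Maf and H3K27ac immunoprecipitations after an input was taken. The labels do not say that equal replicate numbers mark shared chromatin. The authors aligned the reads to mm10 (the submitters' processing notes name Bowtie2 2.3.2, Picard 2.10.3 and bcl2fastq 2.17) and called peaks in each sample. The paper gives a false discovery rate for the Maf peaks, without saying to which list it applies. Other caller settings and use of the input are not given in the sources used here. The deposited lists give the start and end of each peak, and their score column is 1 throughout. Depth is unknown. Inputs were not analysed here.

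Replicates of a target were merged by joining overlapping or touching intervals, and 1 shared base counted as overlap. Starts (41403) were those of protein-coding transcripts in the GENCODE basic set, and starts of all annotated transcripts were tried after the data were seen. Named genes were all members with a Maf peak within 50 kb, all members by class for promoter H3K27ac, the 5 highest for body share and for region length, Col22a1, Col25a1, and up to 4 genes per partner list with the highest Maf peaks. P4ha3 was added after its values were seen. Members and lists were chosen with earlier results of these data known. Overlap and distance routines were tested on simulated data. Python 3.11.15, numpy 2.4.6, SciPy 1.17.1 and matplotlib 3.10.9 were used.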

Additional observations from a re-analysis of the deposited data

How the results depend on the processing

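Of 63 values recomputed for 11 results, 46 stayed within the limits set (counts within 1.5 times, medians within the SD of the single lists). For the median Maf distance this SD came from single-list values of 186 and 15230 kb. That limit was too wide to inform, and 303 kb from the first 50% of the Maf lists counted as within it. Leaving out 1 replicate gave 0 to 4 members with a Maf peak within 1 kb, 0 to 8 in the body, 0 to 4 within 10 kb and 0 to 12 within 50 kb, a median Maf distance of 186 to 15230 kb and a median body share of 2.76% to 2.83%. The low counts and the long distance came from the replicate 1 list alone, which has 74 peaks. The first 50% of the Maf lists gave 1 member within 1 kb, 1 within 10 kb, 5 in the body and 5 within 50 kb. The first 50% of the H3K27ac lists, whose order went with length (Spearman rho of -0.929 and -0.936), gave 21 marked promoters, 15 bodies with a region away from the promoter, a median body share of 1.15% and a median promoter region of 3254 bp. Stretches in both H3K27ac lists gave a median body share of 2.10% and a promoter region of 1673 bp. The starts of all annotated transcripts, chosen after seeing the data, gave 6 members with Maf within 10 kb. H3K27ac in both lists has no value when a list is left out. No paired analysis was possible because the results come from no test, with 1 condition and no groups to compare within a target. Positions alone, an unknown depth and 2 unequal Maf lists limit all values.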
